A study of Mus musculus with 10 samples.

Results

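The interferon-induced genes are a set of 44 genes, chosen by symbol, that cells switch on when they sense interferon or foreign nucleic acid. Of these, 42 were in the deposited table and 41 reached a normalised count of 10 in 5 or more of the 10 libraries, out of 31510 genes in the table and 17556 that passed the same filter. Micro-dissected hippocampi of male APP/PS1 mice (34832-JAX) were profiled by bulk RNA sequencing of polyadenylated RNA, with 1 library per mouse. At 8 months of age 5 mice received AAV8-GFP and 5 received AAV8-irisin-FLAG into the tail vein, a route aimed at the liver so that FLAG-tagged irisin would circulate, and the tissue was taken 2 months later. All 10 mice carried the APP/PS1 transgenes, which code for mutant amyloid precursor protein and presenilin-1 under a mouse prion promoter, and all 10 received a viral vector. No untreated, vector-free or wild-type mouse was among the samples, so every comparison is between the vectors in amyloid-bearing mice.

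Interferons are secreted proteins that bind receptors on the same or neighbouring cells. The type I receptor activates the kinases JAK1 and TYK2, which phosphorylate STAT proteins, STAT2 among them. STAT2 joins IRF9, and the complex they form binds a short DNA element, the interferon-stimulated response element (ISRE), in front of its target genes. The products block viral entry, translation and replication and raise the cell's supply of sensors. In brains with amyloid, microglia are a known source of these transcripts, and astrocytes, neurons and endothelium can make them as well.

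Most of the interferon-induced genes averaged higher with irisin, but no gene passed the test, and the highest values belonged mainly to mouse 1 and, to a lesser degree, mouse 2 of that group. By limma on log2(value + 1), 0 of the 41 genes had an adjusted p under 0.05, and the share over all 17556 genes tested was 0%. Unadjusted p-values were under 0.05 for 3 genes, Ddx60, Ifit2 and Ddx58, which were all higher in AAV8-irisin (7.32% of the 41, against 2.28% of all genes in that direction and 4.49% in either). An exact permutation test of each gene over the mice also gave 3 genes at an unadjusted p under 0.05, where 4.51% of all genes had one. Permutation p-values of single genes are given unadjusted unless stated. The log2 difference (AAV8-irisin minus AAV8-GFP) was positive for 35 of 41 genes, or 85.4%, against 50.5% of all genes tested. Its median was 0.19, beside 0.00099 over all genes. The filter treated the groups unequally for 4 genes, which had different numbers of libraries at 10 or more in each (Oas3, Oasl1, Isg20 and Ifi44); without them 32 of 37 were positive, with a median of 0.19. In bulk tissue, more cells of a type and more RNA per cell cannot be told apart.

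**Figure D1:**
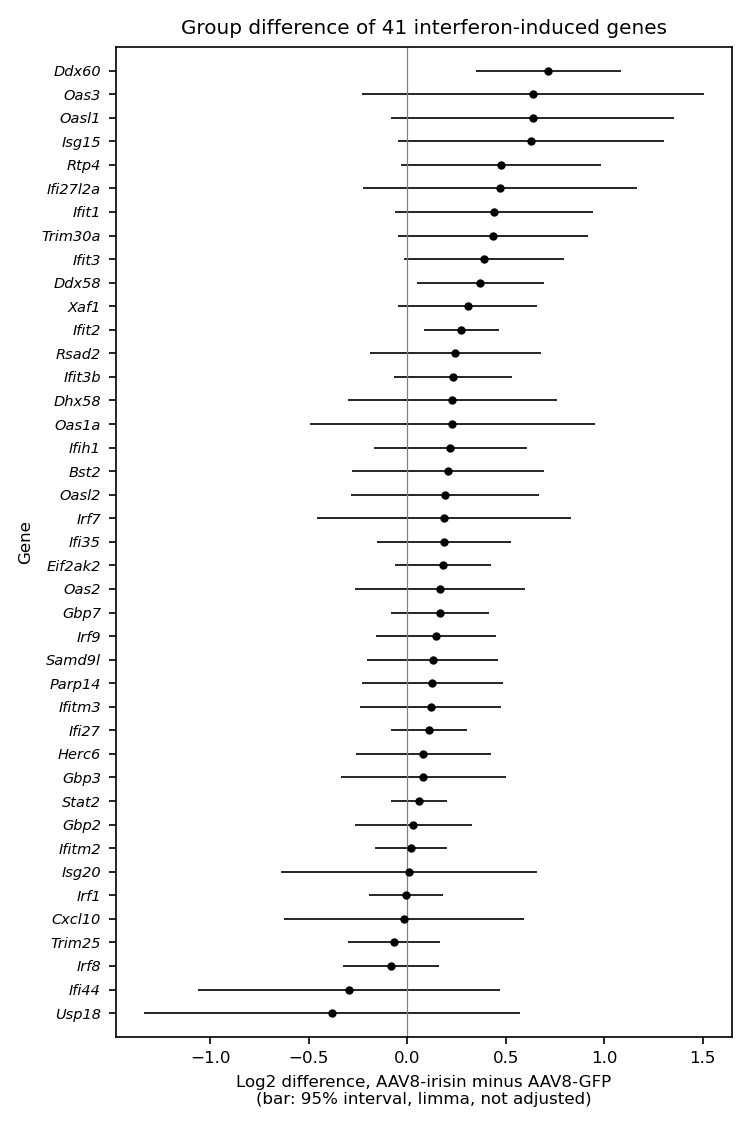
Log2 difference between AAV8-irisin and AAV8-GFP on the log2(value + 1) scale (x axis) for the 41 genes (rows), with 95% limma intervals that are not adjusted for the number of genes. The points of 35 genes lie right of 0, and the intervals of Ddx60, Ifit2 and Ddx58 do not reach 0. Oas3 and Oasl1 are drawn as well, although the filter favoured a positive difference in both.

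AAV8-irisin mouse 1 had the highest value of all 10 mice in 34 of the 41 genes (82.9%), and it was the highest mouse for 8.78% of all genes tested. It lay above every AAV8-GFP mouse in 36 of the 41 (background 14.7%) and at least 1.5-fold above the AAV8-GFP mean, taken on the log2 scale, in 29 (background 2.63%). Mouse 2 lay above every AAV8-GFP mouse in 22 of the 41, with a background of 12.9%. For mice 3, 4 and 5 the counts were 4, 7 and 3, with backgrounds of 13%, 16.5% and 15.8%. The 7 genes that were highest elsewhere were Irf1 and Irf8 (AAV8-GFP mouse 3, background 11.8%), Oasl1 (AAV8-GFP mouse 2, 8.73%), Herc6 (AAV8-GFP mouse 5, 8.67%) and Oas3, Ifitm2 and Rtp4 (AAV8-irisin mouse 2, 6.92%).

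**Figure D2:**
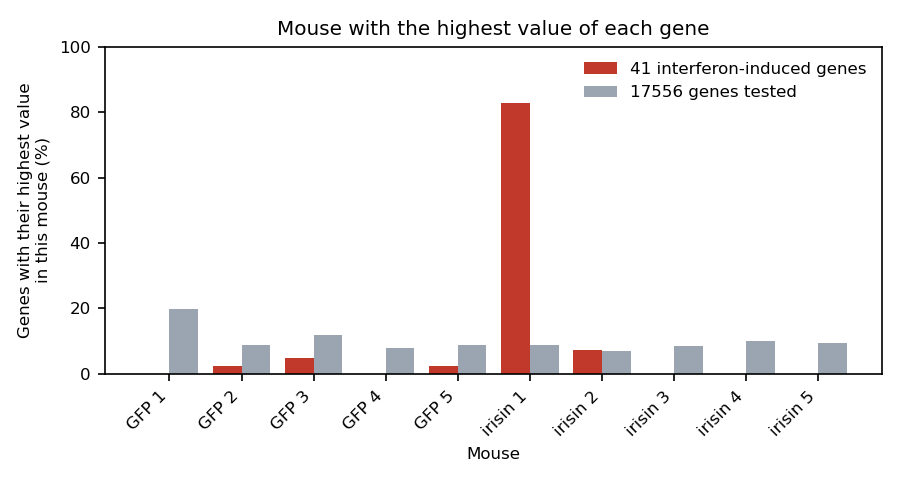
Share of genes (y axis, percent) whose highest value lies in each mouse (x axis), for the 41 interferon-induced genes and for the 17556 genes tested. AAV8-irisin mouse 1 holds 82.9% of the interferon-induced genes and 8.78% of all genes.

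A score per mouse, the mean of log2(value + 1) over the 41 genes, was 6.84, 6.66, 6.71, 6.47 and 6.56 in AAV8-GFP mice 1 to 5 and 7.42, 7.03, 6.69, 6.58 and 6.53 in AAV8-irisin mice 1 to 5. Mice 3, 4 and 5 of AAV8-irisin fell inside the AAV8-GFP range, while mice 1 and 2 were above it, by 0.77 and 0.38 from the AAV8-GFP mean. The scores had an SD of 0.14 with GFP and 0.38 with irisin (n = 5 each). They include the 4 genes for which the filter treated the groups unequally. Gene by gene, the SD of the log2 values was larger in AAV8-irisin for 34 of the 41 (82.9%), and over all genes tested it was larger there for 37.1%. With AAV8-irisin mouse 1 left out, 28 genes had a positive difference and the median was 0.055. With mice 1 and 2 both left out, 20 genes had one and the median was −0.00099. These mice were singled out for their values, and the labels give no treatment or batch that sets them apart. The column names do carry a number that rises with the mouse number in each group. Mice 1 to 3 of both groups had lower such numbers, and higher scores, than mice 4 and 5 of either group. What the number stands for is not stated. The order was read with the scores known and was not tested.

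**Figure D3:**
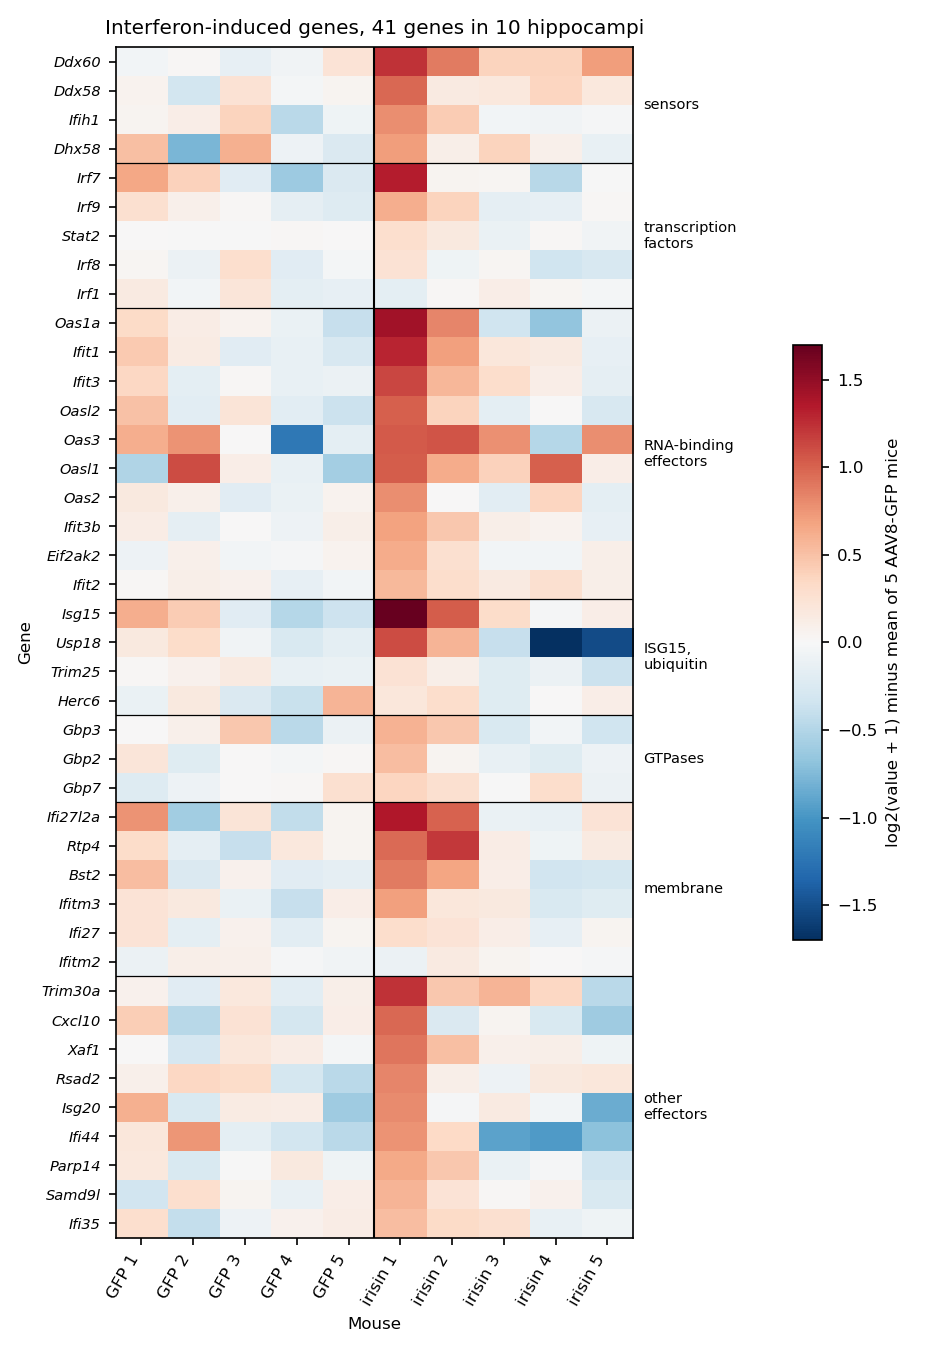
Colour shows log2(value + 1) minus the mean of the 5 AAV8-GFP mice for 41 genes (rows, grouped by role) in 10 mice (columns). The column of AAV8-irisin mouse 1 is red in nearly every row, that of mouse 2 is paler, and the darkest blue is Usp18 in AAV8-irisin mice 4 and 5.

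Many of these genes carry the ISRE letters near their start. RefSeq promoter windows (GRCm38.p6), from 250 bases before to 50 after a gene's start, were found for 34 of the 44 genes. The ISRE core, searched as GAAA, any 2 bases and GAAA, and on the other strand as TTTC, any 2 bases and TTTC, occurred in 20 of these 34 (58.8%), against 3.99% of the 27025 genes with a window. TTCNNNGAA, the core that STAT dimers bind, which reads the same on both strands, occurred in 10 of the 34 (29.4%, against 9.55%), and 5 genes had both. Stretches of 60 bases are shown for 8 genes whose values are described here, 5′ to 3′ on the gene's strand, with each ISRE core in capitals. They lie at chr4:156200862-156200921 (minus strand) for Isg15, chr19:34640760-34640819 (plus strand) for Ifit1, chr19:34583348-34583407 (plus strand) for Ifit3, chr19:34607744-34607803 (plus strand) for Ifit3b, chr8:61928009-61928068 (plus strand) for Ddx60, chr8:71537568-71537627 (minus strand) for Bst2, chr10:128270251-128270310 (plus strand) for Stat2 and chr5:92349068-92349127 (minus strand) for Cxcl10.
Isg15: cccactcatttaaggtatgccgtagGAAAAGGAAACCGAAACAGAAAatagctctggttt
Ifit1: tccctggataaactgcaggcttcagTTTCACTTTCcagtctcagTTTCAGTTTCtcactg
Ifit3: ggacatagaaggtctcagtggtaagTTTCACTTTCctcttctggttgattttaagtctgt
Ifit3b: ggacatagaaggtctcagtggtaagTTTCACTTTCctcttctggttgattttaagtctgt
Ddx60: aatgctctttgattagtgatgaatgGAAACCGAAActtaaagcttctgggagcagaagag
Bst2: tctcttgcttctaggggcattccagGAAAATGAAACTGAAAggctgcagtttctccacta
Stat2: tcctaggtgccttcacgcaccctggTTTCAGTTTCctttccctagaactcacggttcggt
Cxcl10: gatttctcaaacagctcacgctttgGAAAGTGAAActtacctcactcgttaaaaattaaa
Overlapping cores run on in Isg15 and Bst2, Ifit1 has a pair set apart, and the stretches of Ifit3 and Ifit3b are identical. A match describes letters and does not measure binding.

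The interferon genes themselves were at or near 0. Of 21 ligand genes 15 were listed at 0 in all 10 libraries, Ifnb1 among them. The other 6 were Ifna2, Ifna13, Ifna16, Ifne, Ifnz and Ifng, and the highest value of any was 4.53 (Ifnz, AAV8-GFP mouse 4). Ifng, the type II interferon, was listed at 0.950 in AAV8-GFP mouse 1, at 0.991 in AAV8-irisin mouse 5 and at 0 in the other 8 mice. None of the 21 was tested.

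No receptor gene passed the test. Ifnar1, a chain of the type I receptor, had 1549 ± 11.7 normalised counts (mean ± SD, n = 5, as for all such pairs) with GFP and 1500.4 ± 70.8 with irisin, and its partner Ifnar2 had 579.6 ± 50.2 and 594 ± 44.3. Log2 differences were −0.086 for Ifngr1 and −0.084 for Ifngr2, the chains of the type II receptor, and −0.16 for Il10rb, a chain of the type III receptor. Of the 5 tested, 1 had a higher and 4 a lower mean, and 0 were highest in AAV8-irisin mouse 1. Ifnlr1, the other type III chain, lay between 3.75 and 8.78 and was not tested.

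Of 6 kinases and transcription factors of the pathway examined outside the set, 2 had a higher and 4 a lower mean, and 0 passed. The kinases Jak1, Jak2 and Tyk2 had log2 differences of 0.039, 0.027 and −0.097, and the factors Irf2, Irf3 and Irf5 had −0.0013, −0.038 and −0.17.

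Of the 5 transcription factors of the set, 3 had a higher mean and 2 a lower, with a median log2 difference of 0.060. Stat2 (chromosome 10, 128270559 to 128292849, plus strand, GRCm38), which carries the activating part of that complex, was at 1023, 1013, 1012, 1029 and 1021 normalised counts in AAV8-GFP and 1247, 1141, 940.4, 1034 and 981 in AAV8-irisin, mice 1 to 5 in order, as in all such lists of values. The AAV8-GFP mice were almost level, and 3 AAV8-irisin mice were above all of them and the other 2 below (log2 difference 0.060, standard error 0.067, 95% interval −0.084 to 0.20; limma adjusted p = 0.949; exact permutation p = 0.476). Irf9, the DNA-binding part of the same complex, was at 499.8, 438, 419, 373 and 354 and at 635, 538, 372, 375 and 419.9, with mice 1 and 2 of AAV8-irisin above the control range (log2 difference 0.15, standard error 0.14, 95% interval −0.16 to 0.45; limma adjusted p = 0.942; exact permutation p = 0.413). Irf7 (chromosome 7, 141262706 to 141266481, minus strand), a factor that amplifies interferon production, was at 122, 102, 67.9, 50.2 and 64.9 in AAV8-GFP and 197, 80.2, 79.2, 55.3 and 77.0 in AAV8-irisin. Here mouse 1 alone was above the AAV8-GFP range (log2 difference 0.19, standard error 0.30, 95% interval −0.46 to 0.83; limma adjusted p = 0.958; exact permutation p = 0.659). With 1 mouse left out the difference was 0.0026 to 0.10 for Stat2, 0.027 to 0.22 for Irf9 and −0.10 to 0.35 for Irf7, each lowest without AAV8-irisin mouse 1. Irf8, a factor of myeloid identity that microglia express at rest, had a log2 difference of −0.084, and Irf1, a main factor of the type II response, had −0.0068. Irf1 was at 246 in AAV8-irisin mouse 1, the lowest of the 10 mice.

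**Figure D4:**
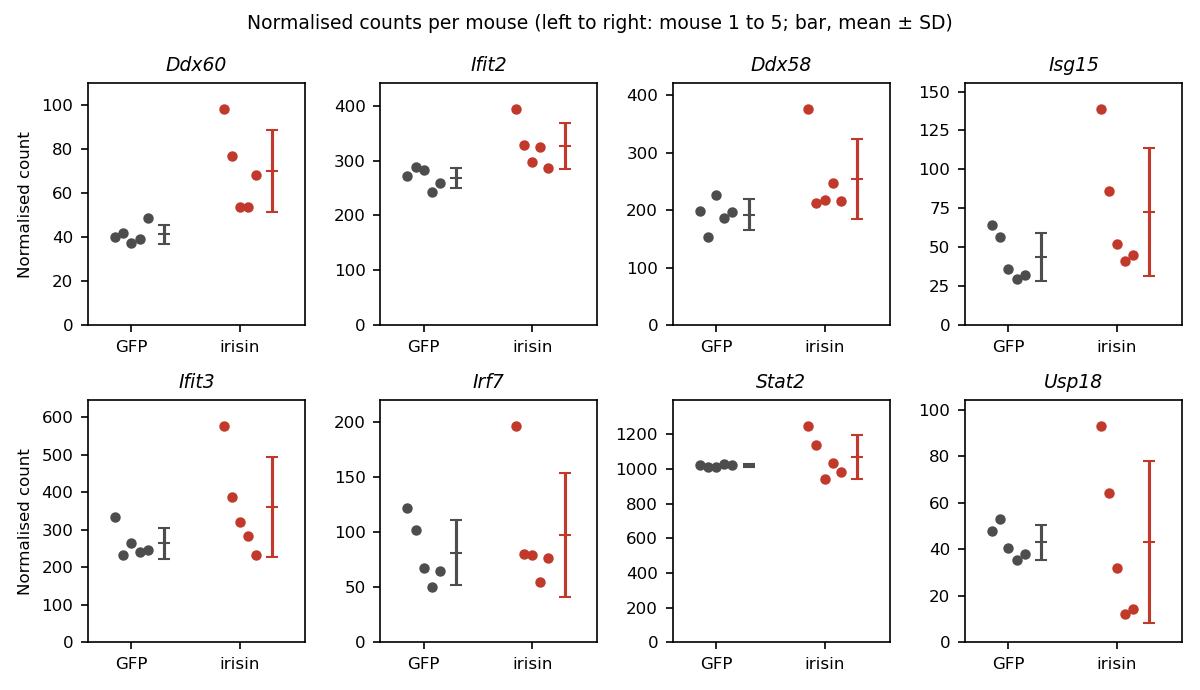
Normalised counts (y axis, linear from 0) of 8 genes in each mouse, with the mean and SD of each group (n = 5). The groups do not overlap in Ddx60, and in Isg15, Ifit3 and Usp18 AAV8-irisin mice 1 and 2 stand above all others.

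All 4 tested sensors of foreign RNA averaged higher with irisin; their median log2 difference was 0.30, the highest of the 7 roles. Ddx60 (chromosome 8, 61928087 to 62038244, plus strand), a helicase linked to the RIG-I pathway, was at 39.8, 41.6, 37.2, 39.3 and 48.6 normalised counts in AAV8-GFP and 98.2, 76.7, 53.8, 53.6 and 68.2 in AAV8-irisin. All 5 AAV8-irisin mice were above the highest AAV8-GFP mouse, which held for 1 of the 41 genes (2.44%) and for 0.382% of all genes tested. The log2 difference was 0.72 (standard error 0.17, 95% interval 0.35 to 1.09, limma adjusted p = 0.942). The exact permutation p was 0.00794 unadjusted, the smallest that 5 against 5 allows, and 0.967 adjusted over all genes tested. Without AAV8-irisin mice 1 and 2 the difference of Ddx60 was 0.49 (limma, adjusted p = 0.997).

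Ddx58 (chromosome 4, 40203773 to 40239828, minus strand), the gene of the RNA sensor RIG-I, was at 199, 153, 226, 187 and 197 in AAV8-GFP and 376, 212, 217, 246 and 216 in AAV8-irisin. Mice 1 and 4 of AAV8-irisin were above the AAV8-GFP range and the other 3 inside it (log2 difference 0.37, standard error 0.15, 95% interval 0.049 to 0.69; limma adjusted p = 0.942; exact permutation p = 0.0317). Without mouse 1 the difference of Ddx58 was 0.22 (limma, adjusted p = 0.982). Ifih1, which codes for the sensor MDA5, and Dhx58, which codes for LGP2, a regulator of both sensors, had log2 differences of 0.22 and 0.23. Zbp1, a sensor of Z-form nucleic acid, just missed the filter, with 4 libraries at 10 or more. It was at 19.4, 8.73, 12.4, 9.65 and 5.60 in AAV8-GFP and 27.8, 17.6, 7.11, 4.43 and 5.39 in AAV8-irisin, highest in mouse 1. Oasl1, just inside the filter, had 5 such libraries.

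Of 10 effectors that bind RNA or stop translation, Oas3 and Oasl1 passed the filter through the group where they were higher and are left out of the count. The other 8 all had a higher mean, with a median log2 difference of 0.23. Ifit2 (chromosome 19, 34550694 to 34576419, plus strand), of a family that blocks translation of viral RNA, was at 271, 287, 282, 243 and 259 in AAV8-GFP and 394, 329, 298, 325 and 287 in AAV8-irisin. Mice 1 to 4 lay above the AAV8-GFP range and mouse 5 just inside it (log2 difference 0.27, standard error 0.089, 95% interval 0.084 to 0.47; limma adjusted p = 0.942; exact permutation p = 0.0159). The 4 Ifit genes lie together on chromosome 19, 34550694 to 34650009. Ifit1, which binds RNA that lacks the host cap, was at 103, 83.3, 66.0, 69.3 and 62.1 and at 187, 123, 86.1, 83.8 and 68.4 (log2 difference 0.44, standard error 0.23, 95% interval −0.063 to 0.94; limma adjusted p = 0.942; exact permutation p = 0.159). Ifit3, its stabilising partner, was at 334, 234, 266, 239.9 and 245 and at 576, 387, 321, 282 and 234 (log2 difference 0.39, standard error 0.19, 95% interval −0.017 to 0.80; limma adjusted p = 0.942; exact permutation p = 0.135). In both genes only mice 1 and 2 were above every AAV8-GFP mouse. Without mouse 1 the difference was 0.22 for Ifit1 and 0.20 for Ifit3, and without mice 1 and 2 it was 0.066 and 0.082. For Ifit2 it was 0.17 without both. Of the 50-base words of Ifit3, 51.2% also occur in other genes, chiefly Ifit3b, so their counts are uncertain one by one. Ifit3 and Ifit3b together summed to 429 ± 51.5 with GFP and 559 ± 179.6 with irisin, and the log2 difference of Ifit3b was 0.23.

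The oligoadenylate synthetases make the messenger that activates RNase L. Oas1a was at 33.1, 28.9, 27.4, 24.3 and 19.8 in AAV8-GFP and 72.4, 47.4, 20.7, 16.2 and 24.5 in AAV8-irisin, so mice 1 and 2 were above the control range and mouse 4 below it. Its log2 difference was 0.23, and 57.6% of its words are shared, chiefly with Oas1g. Oas2 and its relative Oasl2 had log2 differences of 0.17 and 0.19. Values were low for Oas3 (8.04 ± 4.16 and 12.5 ± 4.55; log2 difference 0.64) and Oasl1 (9.48 ± 5.82 and 14.2 ± 4.04; log2 difference 0.64). In AAV8-GFP only 2 mice reached 10 for Oas3 and 1 for Oasl1, against 4 each in AAV8-irisin. The filter thus favoured a positive difference in both, and no p-value is given for them. Eif2ak2, the kinase PKR, which halts translation on double-stranded RNA, was at 282 to 318 in AAV8-GFP and 466, 363, 290.2, 289 and 320.1 in AAV8-irisin (log2 difference 0.18).

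In the ISG15 and ubiquitin group 2 genes had a higher and 2 a lower mean on the log2 scale. Isg15 (chromosome 4, 156199424 to 156200818, minus strand), a ubiquitin-like protein that is joined to other proteins, was at 64.3, 56.4, 36.3, 29.5 and 32.4 in AAV8-GFP and 139, 85.9, 52.1, 41.3 and 45.01 in AAV8-irisin. Mouse 1 was at 3.17 times the AAV8-GFP mean, the highest ratio of the 41 genes in that mouse, mouse 2 was at 1.96 times, and the other 3 were within the control range (log2 difference 0.63, standard error 0.32, 95% interval −0.049 to 1.31; limma adjusted p = 0.942; exact permutation p = 0.151). Without mouse 1 the difference of Isg15 was 0.36, and without mice 1 and 2 it was 0.14.

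Usp18 (chromosome 6, 121245906 to 121270917, plus strand), which removes ISG15 and damps the type I receptor, was at 47.8, 53.2, 40.7, 35.4 and 37.8 in AAV8-GFP and 92.9, 64.1, 32.1, 12.4 and 14.2 in AAV8-irisin. Mice 1 and 2 were above every AAV8-GFP mouse and mice 3, 4 and 5 below every one. The group means were 43.0 ± 7.35 and 43.1 ± 34.7 (log2 difference −0.38, standard error 0.45, 95% interval −1.34 to 0.57; limma adjusted p = 0.949; exact permutation p = 0.5). Without mice 1 and 2 the difference of Usp18 was −1.20 (limma, adjusted p = 0.997). Leaving out a single AAV8-irisin mouse moved it either way: it was −0.76 without mouse 1, −0.63 without mouse 2, −0.055 without mouse 4 and −0.10 without mouse 5. The ligase genes Herc6 and Trim25 had log2 differences of 0.082 and −0.066; Herc6 shares 12.5% of its words with an overlapping transcript.

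**Figure D5:**
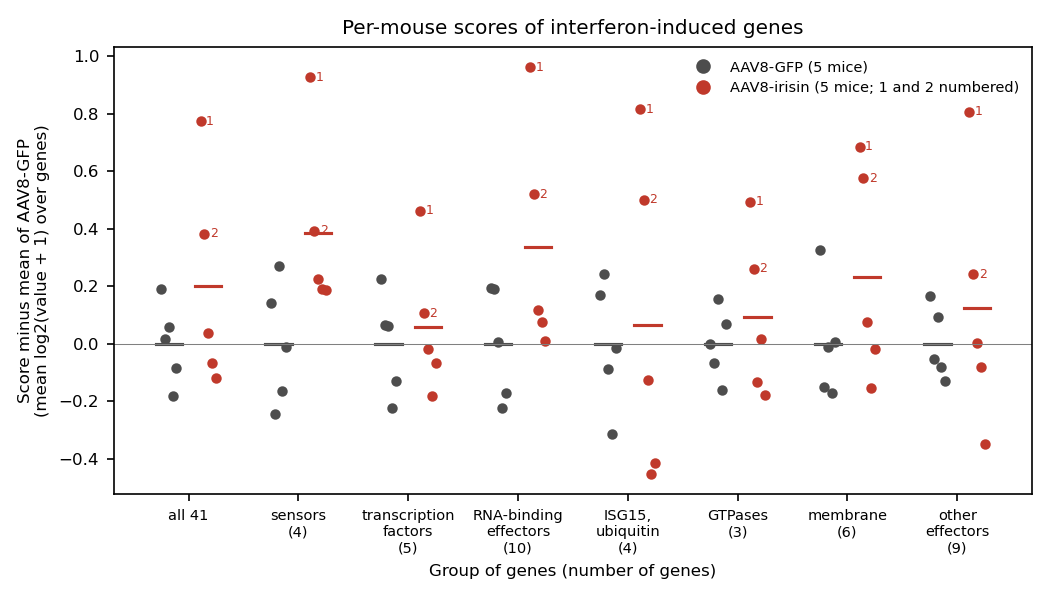
Score of each mouse (mean log2(value + 1) over the genes named on the x axis, minus the AAV8-GFP mean), with group means as bars. Oas3 and Oasl1, for which the filter favoured a positive difference, are included in the first column and in that of the RNA-binding effectors. AAV8-irisin mouse 1 is the highest point in all 8 columns, and AAV8-irisin mice 4 and 5 are the lowest in the ISG15 and ubiquitin column.

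Mx1 and Mx2, dynamin-like GTPases, were not analysed here. The guanylate-binding proteins, GTPases that attack the vacuoles of microbes, had log2 differences of 0.030 for Gbp2, 0.082 for Gbp3 and 0.17 for Gbp7. Gbp2 was at 90.1 to 121 in AAV8-GFP and at 149.8, 108, 95.4, 90.6 and 97.8 in AAV8-irisin, with mouse 1 alone above the control range.

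All 6 genes of membrane proteins had a higher mean, with a median log2 difference of 0.16. Bst2, or tetherin, which holds budding virus at the cell surface, was at 179, 104, 129.8, 108 and 111 in AAV8-GFP and 229, 197, 134, 98.8 and 100.2 in AAV8-irisin. Rtp4, a chaperone of receptors, was at 72.1, 51.9, 43.9, 66.0 and 59.96 and at 114, 135, 63.1, 54.8 and 64.7 (log2 difference 0.47, standard error 0.24, 95% interval −0.033 to 0.98; limma adjusted p = 0.942; exact permutation p = 0.167). In both genes mice 1 and 2 of AAV8-irisin were above the control range, and in Bst2 mice 4 and 5 were below it. The difference of Rtp4 was 0.29 without mouse 2 and 0.067 without mice 1 and 2. Ifitm3, which stops virus from fusing in endosomes, had a log2 difference of 0.12. Its neighbour Ifitm2 had 0.019, and 48.5% of its words are shared, chiefly with an overlapping predicted gene. Ifi27 and Ifi27l2a, small membrane proteins, had 0.11 and 0.47.

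Of the 9 other effectors 7 had a higher mean, with a median log2 difference of 0.13; without Isg20 and Ifi44 it was 6 of 7, with a median of 0.19. Trim30a, a regulator of NF-kB signalling, was at 107, 89.0, 115, 89.8 and 109 in AAV8-GFP and 239, 140.3, 152, 130.1 and 73.9 in AAV8-irisin, so mice 1 to 4 were above the control range and mouse 5 below it (log2 difference 0.43, standard error 0.23, 95% interval −0.049 to 0.92; limma adjusted p = 0.942; exact permutation p = 0.151). Xaf1, a pro-apoptotic factor, was at 157, 128, 179.9, 172 and 154 and at 296, 225, 167, 169 and 149, with mice 1 and 2 above the range (log2 difference 0.31, standard error 0.16, 95% interval −0.046 to 0.66; limma adjusted p = 0.942; exact permutation p = 0.190). Without mouse 1 the differences of Trim30a and Xaf1 were 0.24 and 0.16, and without mice 1 and 2 they were 0.16 and 0.038; without mouse 5 that of Trim30a was 0.66. Cxcl10, a chemokine that draws T cells, was at 31.0, 16.3, 27.5, 18.6 and 24.97 and at 46.4, 19.4, 23.8, 19.1 and 14.8, with mouse 1 above the range and mouse 5 below it (log2 difference −0.018, standard error 0.28, 95% interval −0.63 to 0.59; limma adjusted p = 0.995; exact permutation p = 0.968). Ifi44 was at 22.2, 33.0, 17.0, 15.3 and 13.7 and at 33.5, 24.6, 9.79, 9.36 and 11.5; mouse 1 was above the range and mice 3, 4 and 5 below it, as in Usp18 (log2 difference −0.29). Rsad2, or viperin, which makes a chain-terminating nucleotide, was at 37.1 to 66.0 in AAV8-GFP and 92.4, 55.3, 48.3, 58.0 and 58.8 in AAV8-irisin, with mouse 1 alone above the range. Log2 differences were 0.24 for Rsad2, 0.19 for Ifi35, 0.13 for Samd9l, 0.13 for the ADP-ribosyltransferase gene Parp14 and 0.010 for the exonuclease gene Isg20.

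Pairs of these genes tended to rank the mice alike when all 10 were included. Over the 10 mice the median Spearman rho between pairs of the 41 genes was 0.42, and 89.0% of the 820 pairs were above 0. Over the 8 mice without AAV8-irisin mice 1 and 2 the median was 0.12, with 62.6% above 0. The genes share their libraries, so these values are descriptions. AAV8-irisin mice 1 and 2 were left out because they were highest for these genes. Pairs of all genes tested were not examined. Oasl2 followed the mean of the other 40 genes most closely (rho 0.90) and Ifitm2 least (0.030).

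Many interferon-induced genes outside the set had the same mouse at the top. Of 58 tested genes of a further list, also chosen with earlier results of these data known, 36 (62.1%) were highest in AAV8-irisin mouse 1. The share over all genes tested was 8.78%. The median of the 58 in that mouse was 0.35 above the AAV8-GFP mean on the log2 scale, beside 0.0022 over all genes. Between groups 38 had a higher and 20 a lower mean, 0 passed the test, and the median log2 difference was 0.045 (−0.084 without mice 1 and 2). The smallest p-values belonged to Mov10, an RNA helicase (−0.21), Mndal, of the DNA-binding p200 family (−0.32), Psmb9, an immunoproteasome subunit (−0.44), and Ifit1bl1, an Ifit relative (0.29), all with a limma adjusted p of 0.942.

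Of 15 sensors and adaptors that act before interferon is made, 5 had a higher and 10 a lower mean, and 0 passed. Ikbke, a kinase that activates IRF3 and IRF7, was at 38.6, 49.7, 51.9, 38.6 and 47.6 in AAV8-GFP and 61.8, 51.4, 71.9, 54.2 and 61.7 in AAV8-irisin. Mice 1, 3, 4 and 5 were above the control range and mouse 2 inside it (log2 difference 0.41, limma adjusted p = 0.942). Tlr7 and Tlr9, endosomal receptors for nucleic acid, had −0.33 and −0.17, and Mavs, the adaptor of RIG-I, had −0.13. Of 8 negative regulators 7 had a higher mean and 0 passed, with log2 differences of 0.12 for Ptpn1, 0.050 for Pias1, 0.059 for Trim24 and 0.13 for Socs1. In each of these lists 1 gene was highest in AAV8-irisin mouse 1, Samhd1 among the sensors and adaptors and Socs1 among the regulators.

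Sums of marker genes of other cells were compared because microglia and blood cells can carry these transcripts. Microglial markers, led by Csf1r and Cx3cr1, summed to 11076 to 14756 in AAV8-GFP and to 13072, 12439, 12048, 10926 and 10839 in AAV8-irisin, so mice 1 and 2 lay inside the control range. Within AAV8-irisin these sums ranked the mice in the same order as the interferon score, highest in mouse 1 and lowest in mouse 5. Within AAV8-GFP, mouse 1 had the highest interferon score and the lowest microglial sum. Both orderings lean on Csf1r, the largest gene of the sum. It was at 2982 in AAV8-GFP mouse 1 and 3845 to 4688 in the other AAV8-GFP mice. In AAV8-irisin mice 2 and 3 it was at 4220 and 3464, and their order depends on it. Not all markers were lowest in AAV8-GFP mouse 1: C1qa was at 2285 there, within an AAV8-GFP range of 1789 to 2391. Markers of plaque-associated microglia, led by Lpl and Axl, summed to 5799 to 7858 in AAV8-GFP and to 6743, 6025, 6409.7, 5320.3 and 5284 in AAV8-irisin. Among the AAV8-irisin mice, mouse 1 was the highest for 7 of the 9 microglial and 5 of the 7 plaque-associated markers, and for 19.1% of all genes tested; among all 10 mice it was the highest for 0 markers of either list. All 9 genes of the first list and all 7 tested of the second had a lower mean in AAV8-irisin, and 0 passed. Markers of border macrophages and monocytes (Mrc1, Cd163; 3 of 4 tested had a higher mean) summed to 106 to 168 in AAV8-GFP and to 209.6, 102, 143, 234 and 148 in AAV8-irisin. T and NK cell markers (Cd4, Cd8b1; 0 tested) summed to 23.2 to 29.5 and 22.5 to 57.5. B cell markers (Ms4a1, Cd79b; 1 tested, lower) summed to 16.8 to 30.8 and 16.0 to 24.0. Neutrophil markers (Mpo, S100a9; 0 tested) summed to 6.38 to 13.1 and 5.47 to 13.8, with Ly6g at 0 in all libraries.

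Red cell markers (Hbb-bs, Hba-a2; 0 of 5 higher) summed to 1586 to 4502 in AAV8-GFP and 1669 to 3211 in AAV8-irisin. Their median log2 difference was −0.65, and that of the choroid plexus markers was 0.49, both further from 0 than the 0.19 of the interferon-induced genes. Unadjusted limma p-values were under 0.05 for 3 of the 5 red cell and 3 of the 7 choroid plexus genes, against 4.49% of all genes. Choroid plexus markers (Kl, Ttr; 7 of 7 higher) summed to 863 to 1131 and 1116 to 2916, highest in AAV8-irisin mouse 4, whose interferon score was inside the AAV8-GFP range. Ependymal markers (Foxj1, Rsph1; 6 of 6 higher) summed to 247 to 615 and 444 to 664. Fibroblast markers (Dcn, Col1a2; 4 of 6 higher) summed to 1766 to 2606 and 1996 to 2608. Endothelial markers (Flt1, Slco1a4; 3 of 6 higher) summed to 5378 to 7214 and 5089 to 6343. Astrocyte markers (Gfap, Aldoc; 1 of 6 higher) summed to 77039.5 to 92589 and 73278 to 80021, and oligodendrocyte markers (Mbp, Mobp; 5 of 5 higher) to 75979 to 102534 and 88719 to 106357. No marker gene passed the test. The part of the microglial, macrophage, red cell, choroid plexus and ependymal markers in the interferon result was not tested.

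Hippocampal neuron markers, led by Syt1 and Slc17a7, were present in all libraries and summed to 135730 to 145109.6 in AAV8-GFP and 137852 to 140996 in AAV8-irisin. Normalised counts summed to 35300000 to 36600000 per library, and the depth estimated from the spacing of low values was 30700000 to 41500000 reads. AAV8-irisin mouse 1 (37351957) and mouse 2 (35076068) lay within the range of AAV8-GFP. AAV8-GFP mouse 1 was the highest control mouse in 19 of the 41 genes (46.3%, against 27.9% of all genes) and had the lowest library weight, 0.346. Fndc5, the gene of the irisin precursor, had 2609.9 ± 74.0 and 2479 ± 104 normalised counts in the hippocampus; it checks nothing about the vector, which is meant for the liver.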

How the data were processed

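Hippocampal RNA of 10 mice, 5 per vector, was sequenced, and groups and mouse numbers were taken from the sample titles and treatments. The deposited values are a signal per gene, counts normalised with DESeq2 by the authors, with bcl2fastq 2.17 and genome build mm10 named in the submitters' processing notes; the aligner, counter, annotation and strand setting are not given in the sources used here. Low values were whole multiples of the spacing of 1 read for 69.2% to 81.0% of values (within 0.1 read), so reads were not recovered and no count test was run. Values were tested as log2(value + 1) with limma 3.58.1 (R 4.3.3; lmFit, eBayes with trend, two-sided, Benjamini-Hochberg over all 17556 genes with at least 10 in at least 5 libraries). An exact permutation test over all 252 assignments of the mice was run per gene. Fold changes on this scale understate low genes. Positions and shared 50-base words came from GENCODE M21 (GRCm38), to which all 44 symbols matched, and promoters from RefSeq (GRCm38.p6). There were 26 gene symbols that read as dates.

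The members and all lists were chosen with earlier results of these data known. So was the alternative without AAV8-irisin mice 1 and 2, which were left out because those results showed them highest for these genes; it is a description of how far the values rest on them, not an independent check. All members are named, with full statistics for the 10 of smallest p other than Oasl1, whose filter favoured 1 group, and for Isg15, Ifit3, Irf7, Usp18, Stat2, Irf9 and Cxcl10; the receptors of the pathway and the kinases and factors counted are all named, with the 4 of smallest p of each other pathway list, the ligands above 0 and the 2 highest genes of each cell type list. Some genes of the planned pathway and cell type lists are not reported here and are left out of those lists' counts, sums and medians, so a pathway list described here is not complete. The code was tested on simulated data. Alternatives were other pseudocounts (0.5, 10), filters (none, 50), quantile normalisation, library weights, no trend, a replicate block, the permutation test and left-out mice; leaving out members with unequal numbers of libraries at 10 or more was added after seeing the data.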

Additional observations from a re-analysis of the deposited data

Results flagged for a closer look

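The 41 tested genes and the score, in each vector group, gave 84 groups of 5 values. In 7 of them a mouse had a gap to the next, divided by the group's range, above Dixon's 95% critical value of 0.71. Chance gives about 1 in 20 only for independent groups of normal values. These groups share their mice, so 7 of 84 cannot be set against that rate. In AAV8-irisin, mouse 1 stood above the other 4 in Irf7 (normalised count 197), Rsad2 (92.4), Cxcl10 (46.4), Gbp2 (149.8) and Ddx58 (376). Mouse 4 of AAV8-irisin stood below the others in Oas3 (4.83), and mouse 2 of AAV8-GFP stood above the others in Oasl1 (19.5), both genes of low value.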

How the results depend on the processing

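No interferon-induced gene had an adjusted p under 0.05 under any of the 20 alternatives. Leaving out the 4 genes with unequal numbers of libraries at 10 or more, a step chosen after seeing the data, could not change this. It only takes a part of the 41. With no filter on low values 1 gene of all genes was called, outside the set. The count of the 41 genes at an unadjusted p under 0.05 (3) was 7 with library weights, where the share of all genes was 5.11%. With 1 mouse left out it was 2 to 11, and the share of all genes was 3.39% to 6.24%. It was highest without AAV8-irisin mouse 5 (all genes 3.51%). It was 7 without AAV8-GFP mouse 1 (all genes 4.85%) or AAV8-irisin mouse 4 (all genes 3.39%). With the mouse number as a replicate block the count was 8, with 0 called, and the share of all genes was 4.91%. Over all genes tested, mice that share a number did not deviate together (correlations −0.089 to 0.030). In the interferon score, however, mouse 1 was highest in both groups (6.84 and 7.42), and mice 4 and 5 were lowest. The numbers name separate mice, and the labels do not pair them. With 1 mouse left out, 28 to 37 genes had a higher mean and the median log2 difference was 0.055 to 0.25; without AAV8-irisin mice 1 and 2 together 20 genes did. The unadjusted limma p ranged over the alternatives from 0.000530 to 0.0133 for Ddx60, from 0.00390 to 0.0736 for Ifit2 and from 0.0156 to 0.0752 for Ddx58. The filter of 50 left only 31 of the 41 genes to test. Under all alternatives in which a gene was tested, the sign held for 21 genes. It reversed without mice 1 and 2 for 17, with log2 differences of 0.037 (Irf1), −0.15 (Irf7), −0.090 (Irf9), −0.24 (Isg20), −0.14 (Oasl2), −0.37 (Oas1a), −0.051 (Stat2), −0.17 (Bst2), −0.10 (Ifitm3), −0.0050 (Ifi27l2a), −0.14 (Gbp2), −0.22 (Gbp3), −0.043 (Ifih1), −0.16 (Parp14), −0.057 (Samd9l), −0.00099 (Eif2ak2) and −0.027 (Herc6). It reversed under quantile normalisation for Isg20 (−0.0029) and with library weights for Irf1 (0.031) and Cxcl10 (0.061). With 1 mouse left out the ranges that crossed 0 were −0.047 to 0.044 (Irf1), −0.016 to 0.049 (Ifitm2), −0.27 to 0.13 (Cxcl10), −0.19 to 0.22 (Isg20), −0.093 to 0.087 (Gbp2), −0.047 to 0.19 (Gbp3), −0.014 to 0.23 (Herc6), −0.10 to 0.35 (Irf7), −0.014 to 0.31 (Oasl2), −0.071 to 0.45 (Oas1a), −0.027 to 0.21 (Ifitm3), −0.0033 to 0.24 (Parp14) and −0.14 to 0.0076 (Trim25). The cause of these reversals was not tested. The number of mice and their spread limit the precision: the median standard error of the 41 genes was 0.18, against 0.075 over all genes.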
